A study of Mus musculus with 24 samples.

Results

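Granzymes, perforin and the other core genes of the cytotoxic granule were followed in mouse splenic CD4+ T cells over 24 h of T cell receptor stimulation. The genes were chosen by name and function: 5 granzymes (Gzma, Gzmb, Gzmc, Gzmk and Gzmm), the pore former Prf1, the granule membrane protein gene Nkg7, the cathepsin gene Ctsw and the granule proteoglycan gene Srgn. These 9 genes are 9 of the 54446 gene rows of the count table, and all 9 were among the 15325 genes that passed the filter on low counts.

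CD4+ T cells were taken from spleens of 6 mice on a C57BL6 background, 3 labelled wild type (WT, mice WT 1, WT 3 and WT 4) and 3 labelled Aim2-/- (mice KO 1, KO 2 and KO 4), and their mRNA was sequenced unstimulated (0 h) and at 3, 6 and 24 h of culture with anti-CD3 and anti-CD28 antibodies. The labels number the libraries within a genotype, and libraries with the same number were taken as 1 mouse. Each mouse so defined gave a library at each of the 4 times, so the 24 libraries form 8 groups of 3. Aim2 encodes a cytosolic DNA sensor, and the Aim2-/- mice lack it in every cell, not in T cells alone. The age of the mice is not given in the sources used here, and the cells were enriched by removing other cells rather than sorted. Values of 3 mice are given in the order WT 1, WT 3, WT 4 and KO 1, KO 2, KO 4, as CPM, the counts of a gene divided by the TMM-scaled size of its library.

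Cytotoxic lymphocytes kill by releasing granules in which serine proteases, the granzymes, are stored on the proteoglycan serglycin, and perforin opens the way for the granzymes into the target cell. CD8+ T cells and NK cells carry this machinery as their main weapon. Granzyme and perforin genes are also known in some CD4+ T cells, among them cytotoxic helper cells, effector cells and activated regulatory T cells (Treg), and Gzmb is one of the genes that the study names as part of a Treg signature.

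Library totals lay between 19715161 and 21627018 counts, and 3 counts, taken as the floor of detection, were 0.129 to 0.155 CPM. In the mouse labelled WT 1, Aim2 stood at 21.5 CPM at 0 h, beside 75.0 and 67.5 CPM in WT 3 and WT 4 and 15.7 to 20.1 CPM in the Aim2-/- mice, so its libraries go against their label and the genotype values of the granule genes are given with and without it. The 7 CD4 T cell markers (Cd4, Cd3d, Cd3e, Cd3g, Trac, Trbc1, Trbc2) were high in every library, with a summed level of 3132 to 4706 CPM. Of the 2 CD8 T cell markers, Cd8a did not exceed 4.25 CPM and was at 0 in 1 library, and Cd8b1 lay between 7.30 and 13.7 CPM. The 8 NK cell markers were present, with a summed level of 14.6 to 92.1 CPM over all libraries. Klrb1c, Klrd1, Klre1, Klra7 and Klrk1 were above 3 counts in every library. Klrk1 did not fall under 8.27 CPM, and Klrb1c reached 13.8 CPM. The lowest of the 8 were Klra4 and Klra8, at 0 in 1 and 2 libraries, and the NK receptor gene Ncr1, which did not exceed 2.66 CPM. Mouse KO 1 had the highest summed myeloid cell markers at each time, 185 to 357 CPM, while the mice labelled WT had 13.9 to 58.7 CPM. At 3 h the median of all genes moved by 0.11 (WT) and 0.12 (Aim2-/-) on the log2 scale when libraries were scaled by their totals instead of TMM, and the changes below are on the TMM scale.

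The first comparisons asked how the granule genes changed with stimulation within each genotype. A gene is described as having risen or fallen where edgeR's quasi-likelihood test gave an adjusted p under 0.05, with p adjusted after Benjamini and Hochberg over all genes tested. After 24 h Gzmb rose about 16-fold in both genotypes and Gzmc rose as well, while Gzmk, Ctsw and Srgn fell in both. Among cells labelled WT 2 of the 9 genes rose and 4 fell at 24 h, where 36.6% of all genes tested rose and 34.8% fell. Among Aim2-/- cells 3 rose and 4 fell, where 36.8% of all genes rose and 33.5% fell. The share of granule genes that moved was therefore not far from that of all genes, and the median change over the 9 genes was -0.73 on the log2 scale in WT and -0.62 in Aim2-/- cells, beside -0.01 and 0.03 over all genes.

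Earlier changes were few in the main test, which has no term for the mouse. At 3 h none of the 9 genes was called in WT cells by edgeR, where 16.2% of all genes rose and 16.4% fell. An unadjusted p under 0.05 was found for 2 of the 9, beside 6330 of the 15325 genes tested. DESeq2 called 1 of the 9 and 34.1% of all genes, and limma-voom called 0 of the 9 and 32.2% of all genes. In Aim2-/- cells Nkg7 alone fell at 3 h, where 16.1% of all genes rose and 14.6% fell. At 6 h Gzmb, Gzmm and Srgn rose in WT cells and none fell, with 26.4% of all genes higher and 24.8% lower. In Aim2-/- cells Gzmc alone rose at 6 h, with 28.5% of all genes higher and 22.7% lower. The libraries of a mouse are paired, and with mouse as a fixed term of the model the calls numbered 3 in WT cells at 3 h, 6 in WT cells at 6 h and 4 in Aim2-/- cells at 6 h. That fit called 42.7%, 59.2% and 59.9% of all genes in the same 3 comparisons. As a random effect, fitted in limma-voom and not in edgeR, the mouse gave 2, 5 and 1 calls there, beside 40.6%, 57.8% and 59.7% of all genes.

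**Figure D1:**
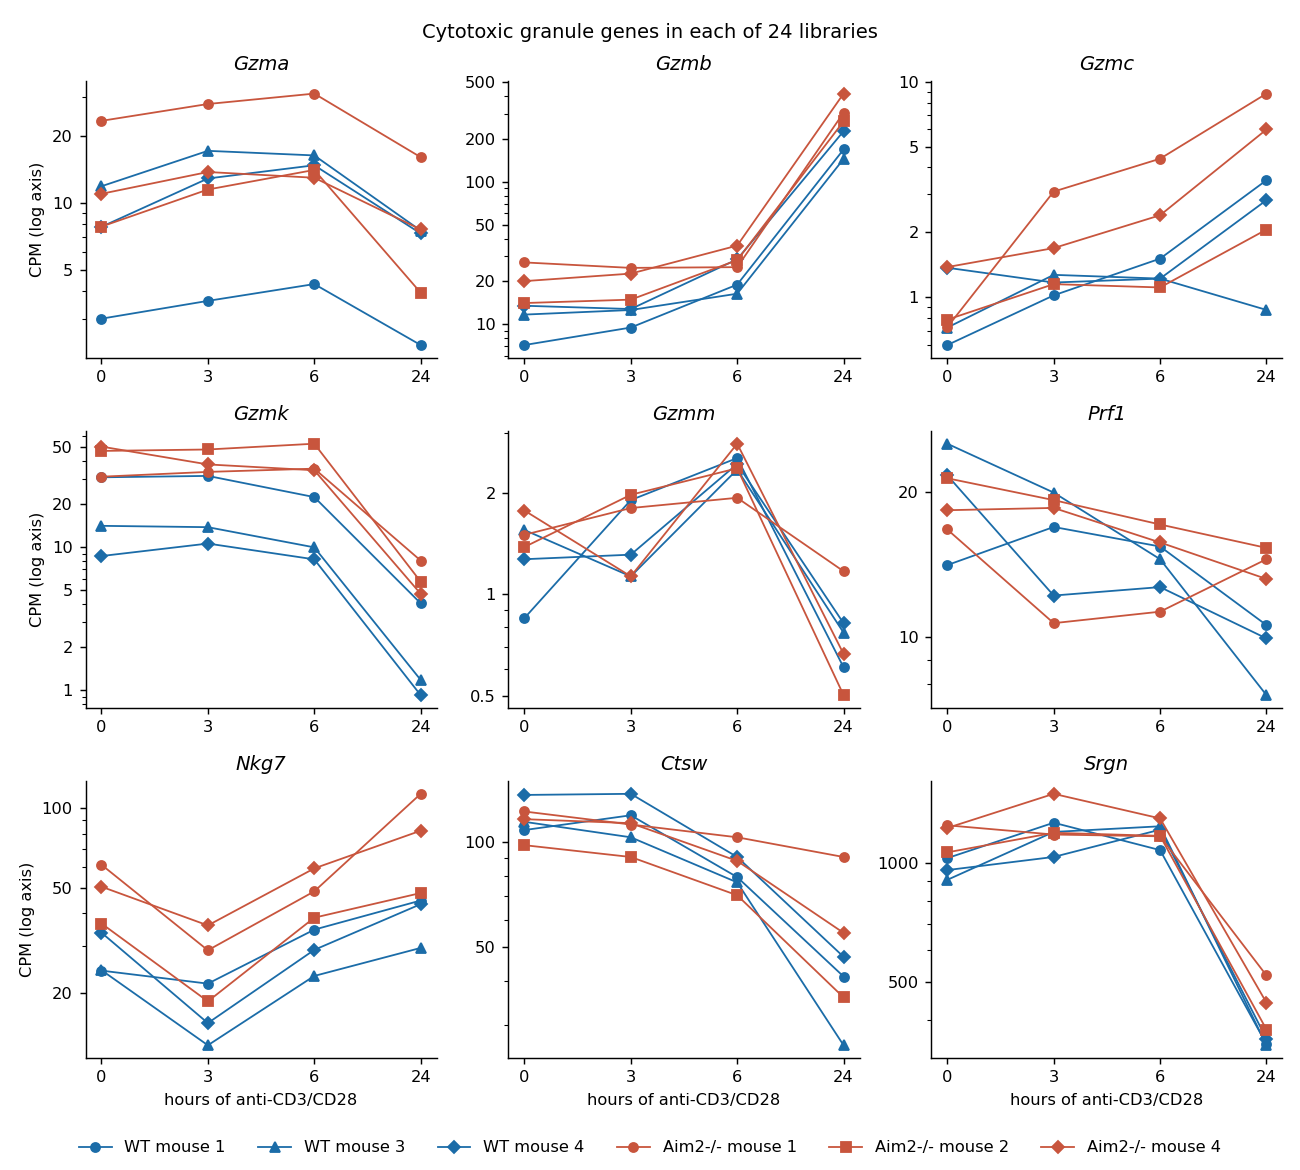
Level of each of the 9 granule genes in CPM (log axis) against hours of stimulation (0, 3, 6 and 24 h, equally spaced), with 1 line per mouse, blue for mice labelled WT and red for Aim2-/- mice. Gzmb ended at 145 to 417 CPM in the 6 mice after starting at 7.15 to 27.2 CPM, Srgn and Gzmk dropped between 6 and 24 h, and for Gzma the mouse labelled WT 1 was lowest and KO 1 highest at each time.

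Gzmb, on chromosome 14 of GRCm38 (chr14:56258838-56262260, minus strand), encodes granzyme B, a protease that cuts after aspartate and activates caspases in target cells. Before stimulation the levels were 7.15, 11.7 and 13.5 CPM in WT and 27.2, 14.1 and 20.1 CPM in Aim2-/- cells. At 3 h the levels were 9.49, 12.6 and 12.8 CPM and 24.9, 14.9 and 22.7 CPM, with no overlap between the genotypes and little distance from 0 h. At 6 h they reached 19.0, 16.4 and 28.6 CPM in WT and 25.2, 28.2 and 35.7 CPM in Aim2-/- cells. At 24 h they stood at 169, 145 and 227 CPM and at 306, 266 and 417 CPM, so that every library of 24 h lay above every library of the earlier times. The fitted change at 24 h was 4.06 on the log2 scale in WT cells (SE 0.30, 16.7-fold, adjusted p 1.0e-10, higher in 3 of 3 mice) and 4.01 in Aim2-/- cells (SE 0.29, 16.1-fold, adjusted p 1.2e-10, higher in 3 of 3 mice). At 6 h the rise was 0.98 in WT cells (SE 0.28, adjusted p 0.00639), which without the mouse labelled WT 1 was 0.83 and no longer called (adjusted p 0.0543). In Aim2-/- cells the change at 6 h was 0.54 (SE 0.27, adjusted p 0.105), and it passed the test with mouse as a fixed term (0.56, SE 0.18, adjusted p 0.00921) or as a random effect (0.57, SE 0.21, adjusted p 0.0252) and without mouse KO 1 (0.90, adjusted p 0.0315).

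Gzmc lies 24.2 kb from Gzmb in the same cluster (chr14:56231441-56234656, minus strand) and encodes granzyme C, a granzyme of strongly activated killer cells. It stood near 1 CPM at 0 h, at 0.600, 0.723 and 1.37 CPM in WT cells and 0.726, 0.787 and 1.38 CPM in Aim2-/- cells. Cells of 3 h had 1.02, 1.27 and 1.17 CPM in WT and 3.09, 1.15 and 1.69 CPM in Aim2-/- mice. At 6 h the levels were 1.51, 1.22 and 1.22 CPM and 4.39, 1.11 and 2.40 CPM. At 24 h they were 3.49, 0.873 and 2.82 CPM and 8.80, 2.06 and 6.00 CPM, so WT 3 remained within the range of 0 h while the 3 Aim2-/- mice lay above theirs. The mice of a genotype thus spread more widely for Gzmc than for Gzmb. Gzmc rose by 2.54 in Aim2-/- cells at 24 h (log2 scale, SE 0.57, adjusted p 4.9e-04) and by 1.45 at 6 h (SE 0.56, adjusted p 0.0375). In WT cells it rose by 1.41 at 24 h (SE 0.57, adjusted p 0.0328), and this call was lost without the mouse labelled WT 1 (0.82, adjusted p 0.340), without WT 4 (1.72, adjusted p 0.0619) and without KO 4 (1.41, adjusted p 0.0526). The call in Aim2-/- cells at 6 h was lost without KO 1 (0.69, adjusted p 0.379), without KO 4 (1.86, adjusted p 0.0643), without the mouse labelled WT 1 (1.45, adjusted p 0.0504) and without WT 4 (1.45, adjusted p 0.0580). With limma-voom neither call held (1.27, adjusted p 0.130 in WT at 24 h and 1.29, adjusted p 0.127 in Aim2-/- cells at 6 h). With mouse added to limma-voom as a random effect the estimates were the same and neither was called (adjusted p 0.0591 and 0.0533). Of the annotated transcript of Gzmc, 32 of 844 windows of 51 bases (3.79%) occur also in Gzmd, Gzme or Gzmg, so a few of its reads could be shared with these neighbours, and the other 8 genes shared no such window with any gene.

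The promoters of Gzmb and Gzmc are shown because these are the granule genes that rose at 24 h in both genotypes. The sequences are the 250 bases before the start in RefSeq, on the strand of the gene, 5′ to 3′, at chr14:56262335-56262584 for Gzmb and chr14:56234658-56234907 for Gzmc (GRCm38.p6, both minus strand). The RefSeq start of Gzmb lies 74 bases upstream of that in GENCODE, and that of Gzmc 1 base upstream. Capitals mark the letters of the AP-1 motif (TGANTCA), the cyclic AMP response element, CRE (TGACGTCA), and the RUNX motif (TGTGGT, or its complement), which do not overlap each other here.
Gzmb: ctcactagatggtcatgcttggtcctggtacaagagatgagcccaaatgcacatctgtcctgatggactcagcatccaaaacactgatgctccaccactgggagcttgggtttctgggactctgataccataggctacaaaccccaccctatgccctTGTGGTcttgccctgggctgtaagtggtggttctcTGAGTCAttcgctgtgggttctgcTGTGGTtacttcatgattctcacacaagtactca
Gzmc: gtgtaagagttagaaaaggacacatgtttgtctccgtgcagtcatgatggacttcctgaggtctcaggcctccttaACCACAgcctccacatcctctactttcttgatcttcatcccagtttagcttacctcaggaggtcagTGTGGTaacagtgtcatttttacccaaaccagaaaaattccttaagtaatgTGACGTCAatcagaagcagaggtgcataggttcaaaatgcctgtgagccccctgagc
The Gzmb window holds the AP-1 letters 58 to 52 bases before the start and the RUNX letters at 93 to 88 and at 34 to 29 bases. The Gzmc window holds the CRE letters 57 to 50 bases before the start and the RUNX letters at 108 to 103 bases and, on the other strand, at 174 to 169 bases. Both strands were searched, and neither window holds the letters of an NFAT core (GGAAA), a STAT motif (TTCNNNGAA), a T-box motif (TCACACC) or an E-box (CACGTG). Among the 32851 promoter windows of the table, 6.75% hold the AP-1 letters, 1.55% the CRE letters and 14% the RUNX letters, and the NFAT core, STAT, T-box and E-box letters occur in 55.6%, 7.02%, 3.33% and 6.02%. The AP-1 letters were found in Gzmb alone and the CRE letters in Gzmc alone among the 8 granule genes with a promoter in the table. These 8 have 10 windows there, since Gzmm and Srgn have 2 starts each. The RUNX letters were found in 7 of the 10 windows (Gzma, Gzmb, Gzmc, Prf1, Nkg7 and 1 each of Gzmm and Srgn) and the T-box letters in 3 (Gzmk, Nkg7 and the other window of Gzmm). These matches describe the letters and not binding.

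Gzmk encodes granzyme K, a trypsin-like protease, and lies beside Gzma on chromosome 13 (chr13:113171608-113225908, minus strand). It showed the largest fall of the 9 genes. Unstimulated cells had 30.8, 14.1 and 8.67 CPM of Gzmk in WT and 31.1, 47.1 and 50.5 CPM in Aim2-/- mice, and cells of 6 h had 22.4, 9.97 and 8.22 CPM and 35.4, 52.9 and 34.5 CPM. At 24 h the levels were 4.05, 1.18 and 0.923 CPM and 8.06, 5.74 and 4.72 CPM, below every library of the earlier times. It fell by 3.12 on the log2 scale in WT cells (SE 0.56, 8.67-fold lower, adjusted p 4.5e-05) and by 2.79 in Aim2-/- cells (SE 0.51, 6.94-fold lower, adjusted p 6.0e-05), and it was lower in 6 of 6 mice. At 3 and 6 h its changes lay between -0.40 and 0.06 and none was called. The annotated span of Gzmk contains Esm1 on the opposite strand, with 0 shared exon bases.

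Gzma encodes granzyme A, a tryptase (chr13:113093825-113100981, minus strand). Its level differed more between mice than between times. The mouse labelled WT 1 had 3.00, 3.61, 4.30 and 2.28 CPM at 0, 3, 6 and 24 h, the lowest of the 6 mice each time. KO 1 had 23.5, 28.0, 31.2 and 16.1 CPM, the highest each time, and the other 4 mice lay between 3.93 and 17.2 CPM. Within each mouse Gzma was higher at 3 and 6 h than at 0 h and lower at 24 h, in 6 of 6 mice. Without regard to the mouse no change was called, with log2 values of 0.57, 0.65 and -0.41 in WT cells at 3, 6 and 24 h (SE 0.66 to 0.67) and 0.33, 0.46 and -0.62 in Aim2-/- cells (SE 0.64 to 0.65). With mouse as a fixed term the rise in WT cells was called at 3 h (0.54, SE 0.16, adjusted p 0.0107) and 6 h (0.65, adjusted p 0.00167), as was that in Aim2-/- cells at 6 h (0.50, adjusted p 0.00639). The fall at 24 h was called in the same fit in WT (-0.39, SE 0.17, adjusted p 0.0434) and Aim2-/- cells (-0.65, SE 0.16, adjusted p 7.9e-04). With mouse as a random effect none of these changes was called, with adjusted p 0.407, 0.256 and 0.522 in WT at 3, 6 and 24 h and 0.223 and 0.144 in Aim2-/- cells at 6 and 24 h. The fixed term was fitted with edgeR and the random effect with limma-voom. The calls of Gzma thus differed between fits that differ in the test as well as in the mouse term.

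Gzmm, on chromosome 10 (chr10:79689020-79695261, plus strand), encodes granzyme M, a granzyme known best from NK and innate-like cells. It was scarce at 0 h, with 0.850, 1.55 and 1.27 CPM in WT and 1.5, 1.38 and 1.77 CPM in Aim2-/- cells. At 6 h it stood at 2.53, 2.34 and 2.43 CPM and at 1.93, 2.36 and 2.79 CPM, above every library of 0 h. At 24 h it had dropped to 0.608, 0.770 and 0.821 CPM and to 1.17, 0.503 and 0.666 CPM, that is 10 to 24 counts per library. The rise at 6 h was called in WT cells (0.99, SE 0.31, adjusted p 0.0105), but not without the mouse labelled WT 1 (0.76, adjusted p 0.109) or without WT 4 (1.02, adjusted p 0.0655). The Aim2-/- value at 6 h was 0.60 (SE 0.30, adjusted p 0.104). The fall at 24 h was called in Aim2-/- cells (-0.98, SE 0.32, adjusted p 0.0106), though not without KO 2 (-0.82, adjusted p 0.0717) or KO 4 (-0.77, adjusted p 0.0972). In WT cells the value at 24 h was -0.73 (SE 0.33, adjusted p 0.0525), which passed the test without KO 1 (adjusted p 0.0425).

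Prf1, on chromosome 10 (chr10:61297833-61304680, plus strand), encodes perforin. Its levels at 0 h were 14.1, 25.1 and 21.6 CPM in WT and 16.7, 21.3 and 18.3 CPM in Aim2-/- cells. At 24 h they were 10.6, 7.60 and 9.95 CPM in WT and 14.5, 15.3 and 13.2 CPM in Aim2-/- cells, so each mouse was lower than at its own 0 h and the genotypes did not overlap. Prf1 fell by 1.11 on the log2 scale in WT cells (SE 0.23, 2.16-fold lower, adjusted p 2.6e-04). The Aim2-/- change was -0.39 (SE 0.23, adjusted p 0.138), and the difference between the genotypes' changes was 0.72 (SE 0.33, p 0.0401, adjusted p 0.394 in the interaction test). At 6 h the WT value was -0.51 (SE 0.23, adjusted p 0.0684), which passed the test with mouse as a fixed term or a random effect (adjusted p 0.0283 and 0.0467), without the mouse labelled WT 1 (-0.78, adjusted p 0.0271) and without KO 1 (-0.51, adjusted p 0.0370). Gzmb and Prf1 therefore moved in opposite directions in WT cells over 24 h.

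**Figure D2:**
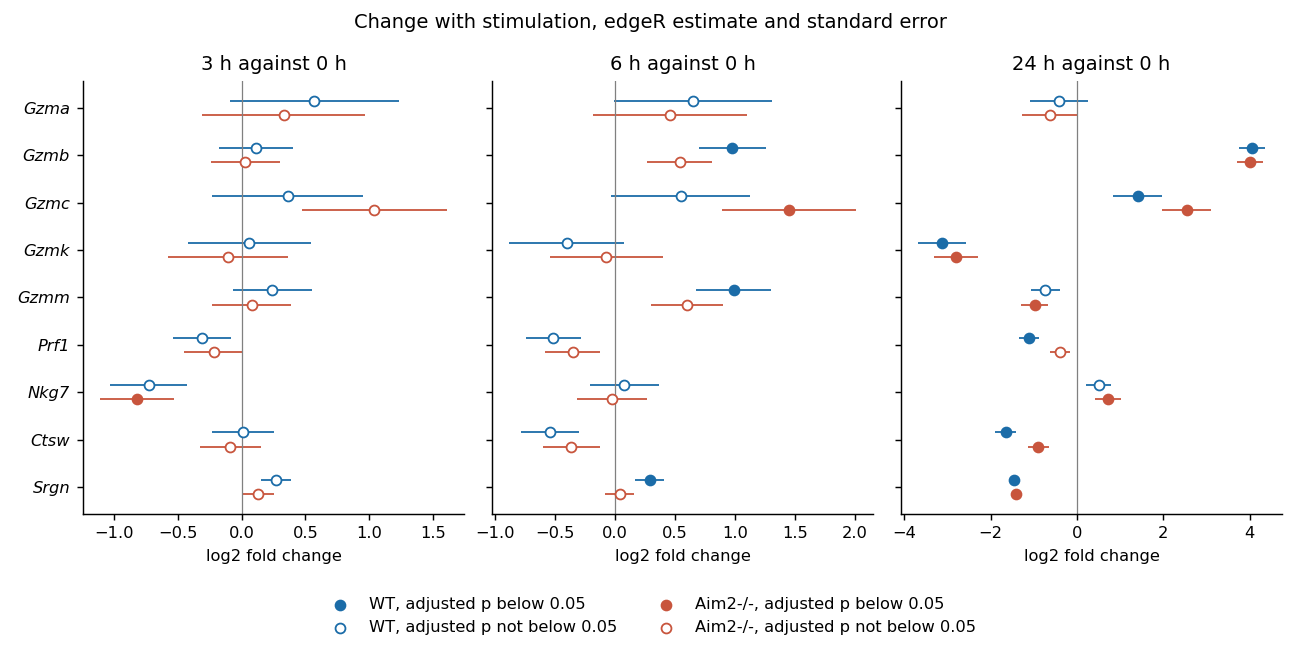
Log2 fold change of each granule gene at 3, 6 and 24 h against 0 h (edgeR estimate, bars show the standard error), blue for cells labelled WT and red for Aim2-/- cells, with filled points where the adjusted p was under 0.05. At 24 h Gzmb stands at 4.06 and 4.01, Gzmk at -3.12 and -2.79, and the filled points of Gzmc, Ctsw and Srgn lie on the same side in both genotypes.

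Nkg7 (chr7:43437073-43438249, plus strand) encodes a membrane protein of the granules that is needed for their efficient release. It dipped and then recovered. From 24.3, 24.4 and 33.8 CPM in WT and 61.0, 36.6 and 50.4 CPM in Aim2-/- cells at 0 h, it stood at 21.7, 12.7 and 15.4 CPM and at 29.0, 18.6 and 36.0 CPM at 3 h. At 6 h it was back at 34.7, 23.2 and 29.1 CPM and at 48.4, 38.5 and 59.1 CPM, and at 24 h it reached 44.7, 29.6 and 43.3 CPM and 113, 47.7 and 82.0 CPM. All 6 mice were lower at 3 h than at 0 h and all 6 were higher at 24 h. The fall at 3 h was called in Aim2-/- cells (-0.82, SE 0.29, adjusted p 0.0371), but not without KO 1 (-0.67, adjusted p 0.170), KO 4 (-1.03, adjusted p 0.0664) or WT 4 (-0.82, adjusted p 0.0621), nor with library totals as the scale (-0.71, adjusted p 0.0814). In WT cells it was -0.73 (SE 0.30, adjusted p 0.0677), and it was called with mouse as a fixed term (-0.75, SE 0.17, adjusted p 8.8e-04) or a random effect (adjusted p 0.0214) and without KO 2 (adjusted p 0.0160). At 24 h Nkg7 rose by 0.72 in Aim2-/- cells (SE 0.29, adjusted p 0.0320), a call lost without KO 1 (0.58, adjusted p 0.145) or KO 4 (0.72, adjusted p 0.0973). The WT value at 24 h was 0.51 (SE 0.29, adjusted p 0.123), called with mouse as a fixed term (0.49, adjusted p 0.00820) or a random effect (adjusted p 0.0430) and without KO 2 (adjusted p 0.0415).

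Ctsw (chr19:5465043-5468507, minus strand) encodes cathepsin W, a cysteine protease found mainly in cytotoxic lymphocytes. Its levels changed little up to 3 h and then dropped stepwise. At 0 h they were 108, 114 and 136 CPM in WT and 122, 97.8 and 116 CPM in Aim2-/- cells, and at 6 h 79.3, 76.6 and 90.5 CPM and 103, 70.4 and 88.2 CPM. At 24 h they were 41.3, 26.3 and 47.0 CPM and 90.5, 36.0 and 55.0 CPM, with KO 1 well above the other 5 mice. Ctsw fell at 24 h by 1.65 in WT cells (SE 0.24, 3.13-fold lower, adjusted p 3.8e-06) and by 0.89 in Aim2-/- cells (SE 0.24, 1.85-fold lower, adjusted p 0.00248). The difference between these changes was 0.76 (SE 0.34, p 0.0356, adjusted p 0.376). At 6 h the values were -0.54 in WT (SE 0.24, adjusted p 0.0624) and -0.36 in Aim2-/- cells (SE 0.24, adjusted p 0.211), and both were called with mouse as a fixed term (adjusted p 0.00218 and 0.0245). With mouse as a random effect the WT value was called (adjusted p 0.00718) and the Aim2-/- value was not (adjusted p 0.0532). The WT value at 6 h was called also without KO 1 (adjusted p 0.0233) and without KO 2 (adjusted p 0.0215). Ctsw overlaps Fibp on the opposite strand by 9 exon bases.

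Srgn (chr10:62493833-62527451, minus strand) encodes serglycin, on whose sugar chains granzymes and perforin are held, and it is expressed by myeloid and mast cells as well. It carried most of the counts of the set, 81.0% to 88.5% of them up to 6 h and 43.0% to 61.2% at 24 h. Its levels were 1026, 904 and 957 CPM in WT and 1242, 1061 and 1223 CPM in Aim2-/- cells at 0 h. At 6 h they were 1075, 1235 and 1211 CPM and 1165, 1168 and 1293 CPM. At 24 h they were 347, 345 and 358 CPM and 518, 378 and 442 CPM, far below every earlier library. Srgn fell by 1.46 in WT (SE 0.12, 2.75-fold lower, adjusted p 4.3e-10) and by 1.40 in Aim2-/- cells (SE 0.12, 2.64-fold lower, adjusted p 1.0e-09). The rise of 0.29 in WT cells at 6 h (SE 0.12, adjusted p 0.0434) was lost without WT 3 (0.16, adjusted p 0.420) and without WT 4 (0.26, adjusted p 0.188). It was lost also with DESeq2 (0.24, adjusted p 0.0550), with RLE size factors (0.24, adjusted p 0.0766) and with no filter on low counts (0.29, adjusted p 0.0839). At 3 h the WT value of 0.27 (SE 0.12, adjusted p 0.0764) passed the test with mouse as a fixed term (0.27, adjusted p 0.0303) or a random effect (adjusted p 0.0273) and without KO 2 (adjusted p 0.0478).

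In bulk RNA, fewer cells of a type and less RNA per cell cannot be told apart. Beside the falls of Gzmk, Prf1, Ctsw and Srgn at 24 h, the summed level of the 8 NK cell markers lay between 49.4 and 63.3 CPM at 0 h and between 14.6 and 16.9 CPM at 24 h in WT cells, and in Aim2-/- cells between 53.0 and 92.1 CPM and between 17.7 and 41.9 CPM. Of these 8 markers 6 fell in WT and 5 in Aim2-/- cells, led in WT by Klrb1c (-3.38, SE 0.43, adjusted p 5.2e-07), Klra8 (-2.93, adjusted p 0.0349) and Klrd1 (-2.27, adjusted p 4.9e-06). Of the 3 markers of gamma delta and innate-like T cells, Zbtb16 (-3.44 in WT, adjusted p 4.1e-07) and Klrc1 (-2.48, adjusted p 1.0e-07) fell in both genotypes, and the sum of the 3 went from 51.4 to 102 CPM at 0 h to 14.3 to 20.7 CPM at 24 h in WT. Of the 6 markers of memory or effector CD4 T cells 1 rose (Crtam, 4.01 in WT, adjusted p 5.5e-09) and 4 fell in WT cells, among them Ccl5 (-4.58, adjusted p 1.1e-11) and S100a4 (-3.04, adjusted p 2.5e-04). Treg markers did not move as one, with Il2ra higher in WT cells (2.94, adjusted p 8.3e-13) and Foxp3 (-1.09), Ikzf2 (-2.34) and Ctla4 (-2.0) lower. The 2 CD8 T cell markers summed to 9.76 to 11.4 CPM at 0 h and 10.8 to 12.2 CPM at 24 h in WT cells and neither was called there, while both rose in Aim2-/- cells (8.12 to 10.9 CPM at 0 h and 11.3 to 15.6 CPM at 24 h). The part of these cell types in the granule gene changes was not tested.

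Per length of exon, the order of the granule genes was redrawn by stimulation. At 0 h in WT cells Srgn led with 438 ± 28.0 CPM per kb (SD, n = 3), followed by Ctsw with 63.3 ± 7.70 and Nkg7 with 30.1 ± 5.93 CPM per kb, none of which overlapped its neighbour. Gzmk, Prf1, Gzmb and Gzma followed at means of 12.9, 7.84, 7.52 and 7.52 CPM per kb with overlapping ranges, and Gzmc and Gzmm closed the order at 1.00 and 0.830 CPM per kb, also overlapping. At 24 h in WT cells Gzmb stood second with 126 ± 29.3 CPM per kb, its range touching that of Srgn (159 ± 3.28). Nkg7 (42.9 ± 9.11), Ctsw (20.2 ± 5.66) and Gzma (5.65 ± 2.94) came next without overlap between neighbours, and Gzmk was eighth with 1.48 ± 1.25 CPM per kb. In Aim2-/- cells at 24 h Gzmb had the highest mean, 230 ± 54.3 CPM per kb beside 203 ± 31.9 for Srgn, and their ranges overlapped. The mean of Prf1, 3.64 ± 0.616 and 5.54 ± 0.415 CPM per kb in WT and Aim2-/- cells at 24 h, lay within the range of Gzmc in both. The highest WT value of Prf1 (4.12 CPM per kb) lay above the highest of Gzmc (3.91 CPM per kb).

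**Figure D3:**
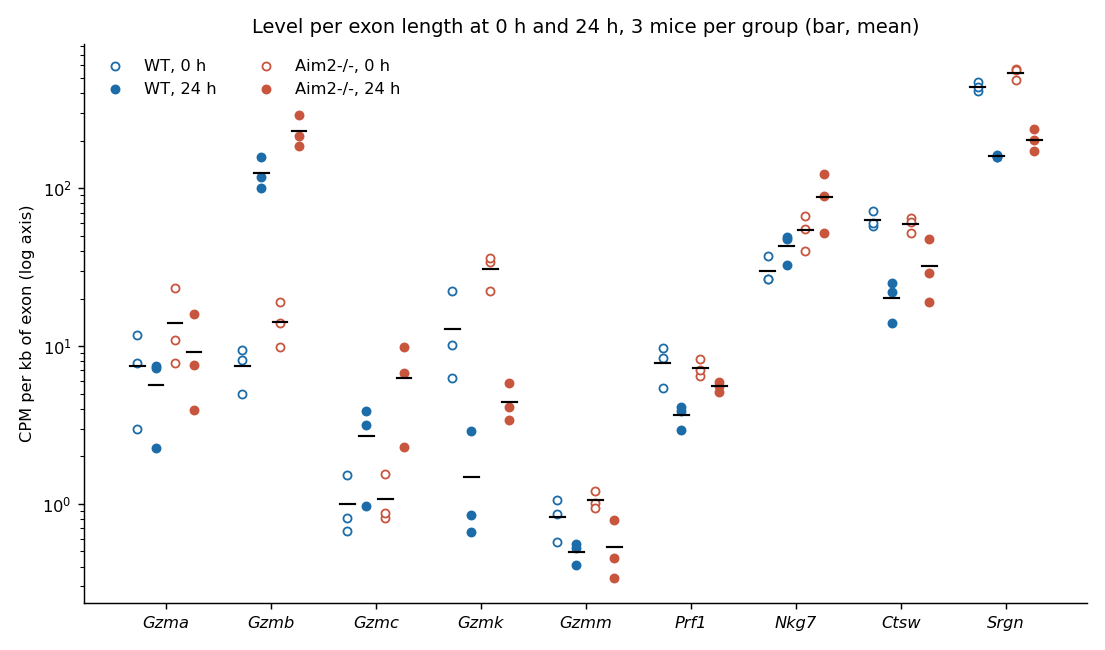
Level of the 9 granule genes per kb of exon (CPM per kb, log axis) at 0 h (open points) and 24 h (filled points), blue for cells labelled WT and red for Aim2-/- cells, 1 point per mouse and a bar at the mean. Gzmb moved from a mean of 7.52 to 126 CPM per kb in WT, next to Srgn at 159, while Gzmk moved from 12.9 to 1.48.

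The second set of comparisons asked whether the granule genes differed between Aim2-/- and WT cells at each time. The 1 difference called by edgeR with all 6 mice was that of Gzmk, higher in Aim2-/- cells at 6 h (unadjusted p 0.00355). Gzmb and Nkg7 had a lower unadjusted p at 24 h (0.00289 and 0.00172), where a smaller share of all genes was called. At 0, 3 and 24 h none of the 9 genes was called by edgeR. An unadjusted p under 0.05 was found for 4, 3 and 7 of the 9, beside 3649, 2350 and 3134 of the 15325 genes tested. DESeq2 called 2, 0 and 2 of the 9, where it called 9.81%, 1.97% and 4.77% of all genes. Limma-voom called 1, 0 and 0, where it called 5.23%, 0.411% and 0.0326% of all genes. At 6 h 1 of the 9 was called. The share of all genes called by edgeR was 5.23%, 0.294%, 15.8% and 0.666% at the 4 times in turn, so the single call among 9 genes at 6 h does not exceed the background. With the 4 libraries of each mouse summed, none of the 9 was called, 0.0117% of the 17163 genes tested were called, DESeq2 called 2 of the 9 and 9.67% of all genes, and limma-voom called 0 of all genes. When mouse was a random effect 2, 1, 2 and 0 of the 9 were called at 0, 3, 6 and 24 h, where 8.25%, 1.38%, 20.4% and 0.228% of all genes were called.

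Gzmk was 1.59 higher in Aim2-/- than in WT cells at 6 h on the log2 scale (SE 0.48, 3.02-fold, adjusted p 0.0342), and by value 1.26, 1.10 and 1.58 higher at 0, 3 and 24 h (SE 0.48, 0.48 and 0.57, adjusted p 0.116, 0.278 and 0.142). At each time the 3 Aim2-/- mice lay above the 3 mice labelled WT, but at 0 h the margin was 31.1 CPM in KO 1 against 30.8 CPM in WT 1. The difference was called with mouse as a random effect at 0, 3 and 6 h (1.42, 1.24 and 1.69, SE 0.32, 0.31 and 0.34, adjusted p 0.0116, 0.0478 and 0.00352) and not at 24 h (1.85, SE 0.73, adjusted p 0.164). The mouse labelled WT 1 stood nearer to the Aim2-/- mice than to WT 3 and WT 4 at 0 h. Without it the difference was 1.91, 1.70, 2.17 and 2.55 at 0, 3, 6 and 24 h (SE 0.29, 0.28, 0.29 and 0.37) and was called at each time (adjusted p 0.00149, 0.00490, 8.0e-04 and 0.00367), where 6.00%, 2.78%, 11.9% and 1.08% of all genes were called. The call at 6 h with all 6 mice was lost when any other mouse was left out, with 1.38 without WT 3 (adjusted p 0.152), 1.34 without WT 4 (adjusted p 0.109), 1.69 without KO 1 (adjusted p 0.0931), 1.37 without KO 2 (adjusted p 0.0832) and 1.70 without KO 4 (adjusted p 0.0865). Summed over the 4 times Gzmk had 22.5, 9.71 and 7.17 CPM in WT and 27.9, 39.2 and 32.4 CPM in Aim2-/- mice, a difference of 1.33 (SE 0.40, adjusted p 0.144) that was 1.97 without the mouse labelled WT 1 (SE 0.20, adjusted p 0.0128).

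Gzmb and Nkg7 were by value higher in Aim2-/- cells at each time, and with all 6 mice and no term for the mouse neither was called. For Gzmb the differences at 0, 3, 6 and 24 h were 0.92, 0.84, 0.48 and 0.87 on the log2 scale (SE 0.26 to 0.28, adjusted p 0.0603, 0.183, 0.215 and 0.0930), and for Nkg7 0.84, 0.75, 0.75 and 1.05 (SE 0.29 to 0.30, adjusted p 0.0868, 0.243, 0.0800 and 0.0784). Nkg7 was called with mouse as a random effect at 0 h (0.83, SE 0.26, adjusted p 0.0497) and 6 h (0.74, SE 0.25, adjusted p 0.0422) and not at 3 and 24 h (adjusted p 0.212 and 0.0679), and Gzmb was called at no time (adjusted p 0.0719, 0.158, 0.154 and 0.0520). Summed over the times, Gzmb had 49.3, 44.8 and 68.0 CPM in WT and 92.9, 78.1 and 120 CPM in Aim2-/- mice, and the genotypes did not overlap (0.84, SE 0.20, adjusted p 0.127). Summed Nkg7 had 31.4, 22.0 and 29.8 CPM and 62.3, 35.1 and 56.6 CPM, again without overlap (0.89, SE 0.23, adjusted p 0.132). Without the mouse labelled WT 1 Gzmb differed by 0.70, 0.72, 0.40 and 0.82 and Nkg7 by 0.76, 0.99, 0.90 and 1.15, and none of these was called (adjusted p 0.0840 or more). Leaving out mouse KO 1 gave 0.66, 0.69, 0.58 and 0.92 for Gzmb and 0.66, 0.72, 0.75 and 0.73 for Nkg7. None was called (adjusted p 0.156 or more), where 166, 20, 294 and 14 of all genes were called. Leaving out both mice numbered 1 gave 0.41, 0.53, 0.41 and 0.83 for Gzmb and 0.56, 0.92, 0.80 and 0.78 for Nkg7. Again none was called (adjusted p 0.138 or more). Without mouse KO 2, the lowest of the Aim2-/- mice for summed Gzmb and Nkg7, Gzmb was called at 0, 3 and 24 h (1.13, 1.03 and 1.00, adjusted p 0.0153, 0.0341 and 0.0128) and Nkg7 at each time (1.02, 0.97, 0.89 and 1.32, adjusted p 0.0107, 0.0262, 0.0117 and 0.00249). In that fit the number of all genes called rose as well, to 2135, 1150, 4015 and 2705 at 0, 3, 6 and 24 h (13.9%, 7.50%, 26.2% and 17.7%) from 802, 45, 2421 and 102.

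For Gzmc the difference was 0.10, 0.78, 1.00 and 1.23 at the 4 times (SE 0.53 to 0.59, adjusted p 0.20 or more), with WT 3 below and KO 1 above the others at 24 h. Without KO 2 it was called at 6 and 24 h (1.37 and 1.62, adjusted p 0.0440 and 0.0226), and without the mouse labelled WT 1 it was -0.12 at 0 h and 1.60 at 24 h and was not called. Leaving out KO 1 gave 0.41 and 0.75 for Gzmc at 6 and 24 h, not called (adjusted p 0.665 and 0.698). Gzma differed by 0.90, 0.66, 0.72 and 0.70 (SE 0.65 to 0.67) with overlapping genotypes at each time, and without the mouse labelled WT 1 by 0.52, 0.24, 0.31 and 0.32. Leaving out KO 1 gave 0.32, 0.17, 0.20 and 0.02 for Gzma. With both mice numbered 1 left out the sign of Gzma turned, to -0.08, -0.28, -0.30 and -0.41, and none of its values was called. Prf1 differed by -0.11, -0.02, 0.05 and 0.61 (SE 0.23, adjusted p 0.162 at 24 h). Ctsw gave -0.09, -0.19, 0.08 and 0.66 (SE 0.24, adjusted p 0.144 at 24 h) and Srgn 0.29, 0.14, 0.04 and 0.35 (SE 0.12, adjusted p 0.117 at 24 h). Without KO 2 Ctsw (0.93, adjusted p 0.00711) and Srgn (0.46, adjusted p 0.0123) were called at 24 h and Srgn at 0 h (0.36, adjusted p 0.0463). Leaving out KO 1 gave 0.25 for Ctsw (adjusted p 0.768) and 0.23 for Srgn (adjusted p 0.622) at 24 h. Srgn at 0 h was then 0.25 (adjusted p 0.328). For Gzmm the difference lay between -0.04 and 0.34 at the 4 times (SE 0.30 to 0.34). Without the mouse labelled WT 1 Prf1 differed by -0.31, 0.01, 0.12 and 0.71 (adjusted p 0.173 at 24 h), Ctsw by -0.16, -0.20, 0.06 and 0.72 (adjusted p 0.215 at 24 h), Srgn by 0.34, 0.21, -0.02 and 0.34 (adjusted p 0.195 at 24 h) and Gzmm by 0.14, 0.42, -0.02 and -0.02. None of these was called.

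**Figure D4:**
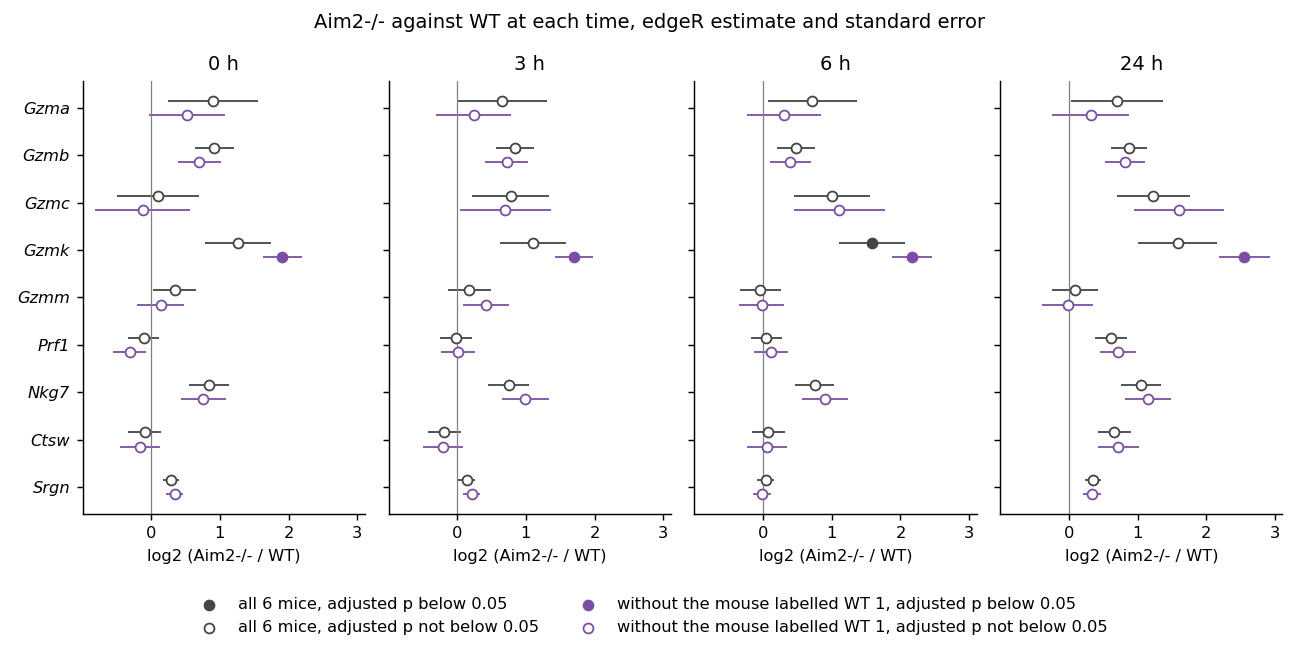
Log2 ratio of Aim2-/- to WT cells for each granule gene at 0, 3, 6 and 24 h (edgeR estimate, bars show the standard error), grey with all 6 mice and purple without the mouse labelled WT 1, with filled points where the adjusted p was under 0.05. Gzmk is the one gene with filled points: at 6 h with all mice (1.59), and at each time without the mouse labelled WT 1 (1.70 to 2.55).

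No difference between the genotypes in the response to stimulation was called for any of the 9 genes at 3, 6 or 24 h. This held for edgeR, DESeq2 and limma-voom. The unadjusted p of edgeR was under 0.05 for 0, 0 and 2 of the 9 (Prf1 and Ctsw at 24 h). It was under 0.05 for 653, 2019 and 1825 of the 15325 genes tested. Of all genes, 0%, 0.0261% and 0% were called at 3, 6 and 24 h by edgeR, 0%, 1.66% and 0.985% by DESeq2 and 0%, 0.0131% and 0.0131% by limma-voom. The differences between the changes at 24 h ranged from -0.25 for Gzmm (SE 0.46) to 1.13 for Gzmc (SE 0.80) on the log2 scale. For Gzmb the difference was -0.05 (SE 0.38) and for Srgn 0.06 (SE 0.16). Without the mouse labelled WT 1 the differences at 24 h were 1.72 for Gzmc (SE 0.94, adjusted p 0.481), 1.02 for Prf1 (SE 0.35, adjusted p 0.235), 0.88 for Ctsw (SE 0.41, adjusted p 0.394), 0.13 for Gzmb (SE 0.42) and 0.01 for Srgn (SE 0.19), and none was called.

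Markers of other cells moved with genotype too. The 5 mast cell and basophil markers summed to 6.93 to 16.5 CPM in the mice labelled WT and 45.2 to 183 CPM in the Aim2-/- mice over the 4 times, and all 5 were called at 0, 6 and 24 h and 3 of them at 3 h, except that without the mouse labelled WT 1 Fcer1a was not called at 24 h (adjusted p 0.0627). Mcpt8, a basophil protease gene of the same chromosome 14 cluster as Gzmb and Gzmc, was 3.14, 2.91, 3.08 and 3.43 higher at 0, 3, 6 and 24 h (SE 0.48 to 0.51), and 3.34, 3.09, 3.24 and 3.63 without the mouse labelled WT 1. The myeloid markers summed to 33.2 to 58.7 CPM in WT and 103 to 357 CPM in Aim2-/- mice at 0 h, and the 5 B cell markers to 3.19 to 4.60 CPM and 10.1 to 34.2 CPM. The 5 erythroid markers summed to 7.40 to 71.5 CPM in WT and 20.6 to 332 CPM in Aim2-/- mice at 0 h, and none was called. Without both mice numbered 1 Gzmk remained higher in Aim2-/- cells, by 2.08, 1.79, 2.17 and 2.26 at 0, 3, 6 and 24 h (adjusted p 7.6e-04, 0.00277, 0.00106 and 0.0107). The memory or effector CD4 T cell markers, among them the chemokine gene Ccl5, summed to 446 to 665 CPM in WT and 827 to 963 CPM in Aim2-/- mice at 0 h. Ccl5 was higher by 1.03 (SE 0.24, adjusted p 0.0206) at 0 h, and by 1.17 without the mouse labelled WT 1. The NK cell marker sum was 49.4 to 63.3 CPM and 53.0 to 92.1 CPM at 0 h with overlap, and Klrk1 alone of that list was called, at 24 h (1.00, SE 0.23, adjusted p 0.0481, and adjusted p 0.0816 without the mouse labelled WT 1). The part of these cells in the Gzmk, Gzmb and Nkg7 values was not tested.

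The wider pathway was described with lists of genes. The other granzymes of the chromosome 14 cluster were next to absent: Gzme did not exceed 4 counts in any library, Gzmf and Gzmn 2 counts and Gzmd 1 count, Gzmg had 0 in all 24, and none of the 5 was tested. At this depth a count of 0 allows about 0.155 CPM or less. Gzmb and Gzmc were thus the 2 granzymes of that cluster that were detected above the floor in all libraries.

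Genes that process, sort or inhibit granzymes were all 12 measured, and at 24 h 7 rose and 3 fell in WT cells and 5 rose and 4 fell in Aim2-/- cells, with a median of 0.39 and 0.20. The largest changes in WT cells were those of Cst7, which encodes cystatin F, an inhibitor of the cathepsins that activate granzymes (3.16, SE 0.17, adjusted p 1.6e-12), and of the serpin genes Serpina3g (2.29, SE 0.39, adjusted p 1.9e-05) and Serpinb9b (1.92, SE 0.83, adjusted p 0.0446). The mean of Cst7 was 11.9 CPM at 0 h and 106 CPM at 24 h in WT cells, and 24.2 and 104 CPM in Aim2-/- cells. Serpinb9, whose product inhibits granzyme B, rose by 1.26 in WT (SE 0.19, adjusted p 5.6e-06) and by 0.95 in Aim2-/- cells. Cst7 was higher in Aim2-/- cells at 0 h (1.03, SE 0.17, adjusted p 0.00384, and 1.25 without the mouse labelled WT 1) and at 6 h (0.55, adjusted p 0.0296, and 0.58). At 6 h Serpinb6a (0.79), Serpina3g (1.10) and Ctsl, a cathepsin gene (0.56), were higher and Igf2r, which encodes a receptor that sorts granzymes to lysosomes, lower (-0.34), with adjusted p from 0.0370 to 0.0496. Without the mouse labelled WT 1 Serpinb6a and Serpina3g remained called and Ctsl (adjusted p 0.124) and Igf2r (adjusted p 0.0979) did not.

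Of the genes for granule movement and release, 13 of 14 were measured, and at 24 h 4 rose and 5 fell in WT cells and 4 rose and 4 fell in Aim2-/- cells. Sytl2, a gene of a synaptotagmin-like protein that binds Rab27, fell by 3.15 in WT (SE 0.15, adjusted p 1.6e-13) and by 3.11 in Aim2-/- cells, and the lysosomal membrane gene Lamp2 fell by 1.14 (SE 0.15, adjusted p 7.5e-07) in WT. Rab27a, which encodes the small GTPase that docks granules, rose by 0.81 in WT (SE 0.10, adjusted p 5.2e-07). At 6 h Rab27a (0.32), Unc13d (0.36), Vamp8 (0.70) and Cd63 (2.14) were higher in Aim2-/- cells, and without the mouse labelled WT 1 Rab27a, Unc13d and Vamp8 remained called and Cd63 did not (adjusted p 0.0650). Cd63 was also higher at 0 h (2.54, adjusted p 0.0379, and adjusted p 0.112 without that mouse).

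Among the 5 other effector molecules 3 rose and 1 fell in WT cells and 4 rose and 1 fell in Aim2-/- cells at 24 h. Lta rose by 3.34 (SE 0.23, adjusted p 4.0e-11), Ifng by 2.78 (SE 0.46, adjusted p 1.8e-05) and Tnf by 2.31 (SE 0.19, adjusted p 5.7e-10) in WT cells. Fasl, the ligand of the other main killing pathway, fell by 2.00 in WT (adjusted p 2.0e-09) and by 1.94 in Aim2-/- cells. Tnf was lower in Aim2-/- cells at 6 h (-0.63, adjusted p 0.0258, and -0.65 without the mouse labelled WT 1).

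Of 9 transcription factor genes of the cytotoxic programme, 1 rose and 6 fell in WT cells and 1 rose and 7 fell in Aim2-/- cells at 24 h, with a median of -1.08 and -1.26. The gene that rose was Tbx21, which encodes T-bet (3.47, SE 0.23, adjusted p 2.6e-11 in WT and 2.28 in Aim2-/- cells), and the largest falls in WT were those of Bhlhe40 (-1.99, adjusted p 4.8e-08) and Hopx (-1.71, adjusted p 9.2e-08). Eomes, whose product acts beside T-bet in killer cells, fell by 1.03 in WT (SE 0.28, adjusted p 0.00267). Its Aim2-/- change was -2.33 (SE 0.29, adjusted p 2.9e-07). The interaction test at 24 h called 0 of the 15325 genes, so no difference between these responses was called. At 0 h 5 of the 9 were higher in Aim2-/- cells, namely Eomes (1.52, SE 0.28, adjusted p 0.00698), Hopx (0.99), Tbx21 (0.96), Id2 (0.83) and Bhlhe40 (0.83), and these remained called without the mouse labelled WT 1, with Eomes at 1.90 (adjusted p 4.1e-04). Without that mouse Eomes was called also at 3 and 6 h (1.46 and 0.94, adjusted p 0.00430 and 0.0210). At 6 h Hopx was higher (0.96, adjusted p 0.00644). Among the 5 factors of helper and resting T cells Zbtb7b, which encodes ThPOK, rose at 24 h (1.23 in WT, adjusted p 2.9e-08), and Tcf7 (-1.63, adjusted p 1.1e-09), Lef1 (-1.62, adjusted p 1.3e-06) and Satb1 (-1.26, adjusted p 3.0e-04) fell in both genotypes, while Bach2 was called in Aim2-/- cells (0.60, adjusted p 0.0170) and had a WT value of 0.47 (adjusted p 0.0540). Tcf7 was lower in Aim2-/- cells at 0 h (-0.54, adjusted p 0.0303, and -0.61 without the mouse labelled WT 1) and Bach2 at 6 h (-0.85, adjusted p 0.0168, and -0.90).

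**Figure D5:**
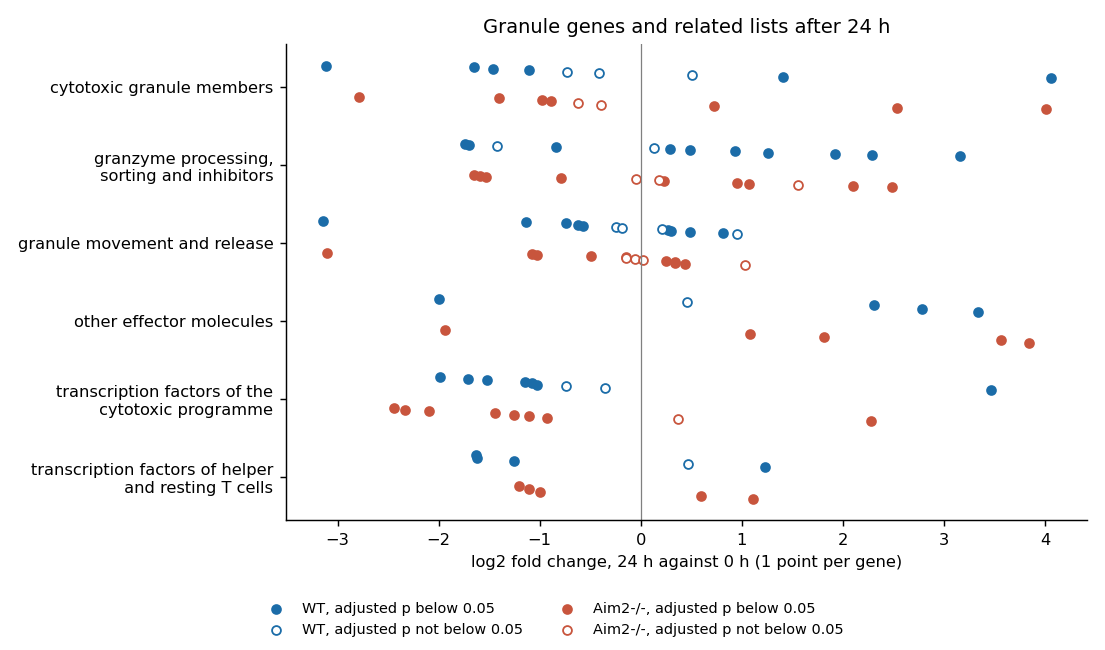
Log2 fold change at 24 h against 0 h of each gene of the granule set and of 5 related lists (1 point per gene, blue for cells labelled WT and red for Aim2-/- cells, filled where the adjusted p was under 0.05, points spread vertically for legibility). In the list of transcription factors of the cytotoxic programme Tbx21 alone stands far to the right, at 3.47 and 2.28, and the granule genes themselves spread from -3.12 to 4.06 in WT.

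The 9 genes did not share 1 time course. As a description across the 24 libraries, which share the 4 times and 6 mice, log2 CPM of Gzmb correlated with that of Gzmc (Pearson r = 0.70) and Nkg7 (0.68) and inversely with Srgn (-0.86), Ctsw (-0.76) and Gzmk (-0.69). Srgn correlated with Gzmk (0.84), Ctsw (0.83) and Gzmm (0.79), and Gzma correlated with none of the 8 others above 0.49. Outside the set, the 3 genes most like Gzmb over the 24 libraries were Chchd10, Mrps16 and Dut (r = 0.97 each), of which the first pair encode mitochondrial proteins and Dut a dUTPase. Those most like Gzmk were Ret (0.97), Esm1 (0.97), which lies within its span, and Igkv10-96 (0.96). Those most like Gzma were the mast cell protease gene Cma1 (0.91), Klra4 (0.87), an NK receptor gene, and Car8 (0.85). Gzmc was most like Asb17os (0.89), Gclm (0.86) and Tmprss3 (0.86), and Gzmm most like Borcs6 (0.87), Runx1 (0.87) and Adamts6 (0.86). Prf1 was most like Gm26910 (0.82), Tbx2 (0.80) and Gm32401 (0.79), and Nkg7 most like Ebi3 (0.89), Adap1 (0.88) and H2-Eb1 (0.87). Ctsw was most like Arhgap4 (0.96), Gabbr1 (0.96) and Neat1 (0.95), and Srgn most like Zfp513 (0.98), Gpr171 (0.97) and Cybc1 (0.97).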

How the data were processed

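Per the labels and the methods of the study, polyadenylated RNA was made into stranded libraries, reads were aligned with STAR to GRCm38, and the authors deposited raw counts per Ensembl gene without normalization. The version of STAR and whether counting used the strand are not given in the sources used here. The submitters' processing notes also name DESeq2 and edgeR. Symbols, positions and exon lengths came from GENCODE M21, which matched 54409 of the 54446 identifiers, and promoter sequences from RefSeq (GRCm38.p6).

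The 24 libraries were grouped by their labels. The main test was edgeR 4.0.16 (R 4.3.3), a two-sided quasi-likelihood test that fitted the 24 libraries together (8 groups, no covariate), scaled by TMM after filterByExpr (minimum count 10), adjusted after Benjamini and Hochberg over 15325 genes. The standard error was derived from the estimate and its F statistic, and the common dispersion was 0.0346. The comparisons were each time against 0 h within a genotype, Aim2-/- against WT at each time and with the libraries of a mouse summed, and the interaction. Log2 CPM used a prior count of 2. Levels were compared between genes per kb of the union of exons. The fit was tested on simulated counts drawn independently for each library. That simulation held no mouse effect, so it cannot show how the fit behaves with paired libraries.

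Alternatives were RLE factors, library totals, no filter, a mean of at least 1 CPM, DESeq2 1.42.0 and limma-voom 3.58.1. Others were mouse as a fixed block (in edgeR) or a random block (in limma-voom), the compared groups alone, and each mouse left out. Removal of both mice numbered 1 was added after seeing the data. The labels give the same number to 4 libraries within a genotype, 1 at each time, and these were read as libraries of 1 mouse. Deviations from group means correlated with r from 0.139 to 0.567 in 36 pairs of libraries of 1 mouse. In 72 pairs of different mice r ran from -0.432 to 0.0742, so the libraries of a mouse are paired. The main test has no term for the mouse and leaves this pairing out, and only the fits with mouse as a block include it.

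The members and the lists were chosen with earlier results of these data known. From each list up to 3 called genes with the largest WT change at 24 h are named, with any gene called by genotype. Serpinb9, Eomes, Fasl, Zbtb7b, Bach2 and the markers named beyond this were chosen after their values were seen. No single match in the annotation was found for Vamp7. Counts cover sampling error only. The p-values of the main test measure the spread between libraries of a group, with the libraries of a mouse taken as independent. Those with mouse as a fixed term measure the spread left within mice. Only the tests of the summed libraries rest on the spread between these mice alone.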

Additional observations from a re-analysis of the deposited data

How the results depend on the processing

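Of 126 tests of the 9 genes, 19 were called, and 10 of these 19 were called under every alternative: Gzmb, Gzmk, Ctsw and Srgn at 24 h in both genotypes, Prf1 in WT and Gzmc in Aim2-/- cells at 24 h. No called value changed sign. Of the values not called, 97 of 1650 refits gave a call and 81 changed sign. The paired analysis called more. Mouse as a fixed replicate block, in edgeR, called 3 genes in WT at 3 h (0 without block). At 6 h it called 6 in WT (3) and 4 in Aim2-/- cells (1). Mouse as a random block, in limma-voom, called 2 and 5 in WT at 3 and 6 h. By genotype the random block called 2, 1 and 2 at 0, 3 and 6 h (0, 0 and 1 in the main test). The paired analysis changed no other count by over 1.5 times.

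In WT cells at 3 h DESeq2, library totals, no filter, the compared groups alone and removal of both mice numbered 1 each called 1 gene. Of the 15325 genes tested, DESeq2, library totals, the compared groups alone and that removal called 5224, 5172, 4512 and 4044. Without the filter 4242 of 31367 genes were called. In Aim2-/- cells library totals and removal of both mice numbered 1 called 0 at 3 h, beside 4984 and 4119 of all genes. At 6 h limma-voom called 0 and no filter 3, beside 7997 and 7289 of all genes. By genotype DESeq2 called 2 at 0 h, 2 at 24 h and 2 in the summed libraries, beside 1504, 731 and 1659 of all genes. Limma-voom called 1 at 0 h, beside 802 of all genes. No filter gave 3, 3, 2 and 4 at 0, 3, 6 and 24 h and 2 in the sums. Beside these, 1499, 775, 2942 and 962 of 31367 genes were called, and 542 in the sums. Removal of both mice numbered 1 called 1 gene, Gzmk, at each time and in the sums. Of all genes it called 573, 267, 970 and 76 at 0, 3, 6 and 24 h, and 251 in the sums. With 1 mouse left out the count ranged from 0 to 2 in WT at 3 h, 1 to 5 in WT at 6 h and 5 to 7 at 24 h in each genotype. It ranged from 0 to 1 in Aim2-/- cells at 3 h and at 6 h, and by genotype from 0 to 3 at 0 h, 0 to 2 at 3 h, 0 to 2 at 6 h, 0 to 5 at 24 h and 0 to 3 in the sums. Of all genes, the fits with 1 mouse left out called 2973 to 5356 in WT at 3 h and 6154 to 8158 at 6 h. In Aim2-/- cells they called 2808 to 4512 at 3 h and 6309 to 7783 at 6 h. At 24 h they called 9791 to 11148 in WT and 9620 to 10718 in Aim2-/- cells. By genotype they called 30 to 2135 at 0 h, 1 to 1150 at 3 h and 71 to 4015 at 6 h. At 24 h it was 3 to 2705 by genotype, and in the sums 0 to 2676. The cause of these shifts was not tested.

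The count of all genes called depended on the settings in the genotype comparisons, with 802 at 0 h (30 to 2135 over the alternatives), 45 at 3 h (1 to 1150), 2421 at 6 h (71 to 4015), 102 at 24 h (0 to 2705) and 2 in the sums (0 to 2676), the highest each time without mouse KO 2. It was 4992 in WT at 3 h (2973 to 6550) and 4698 in Aim2-/- cells (2808 to 6307), and 0, 4 and 0 in the interaction at 3, 6 and 24 h (up to 9, 717 and 424 with mouse as a fixed block). Depth limits Gzmc and Gzmm most, with 12 to 180 and 10 to 58 counts per library.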

Other observations

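The values below were chosen after they were seen. Within 250 kb of Gzmb on chromosome 14 the annotation places a run of serine protease genes. Ctsg, the neutrophil cathepsin G gene of that run, stood at 2.42 ± 0.387 CPM at 0 h and 1.09 ± 0.491 CPM at 24 h in the mice labelled WT (SD, n = 3), while the Aim2-/- mice had 18.5 ± 8.14 and 15.2 ± 12.7 CPM. The mast cell protease genes Mcpt1, Mcpt2, Mcpt4 and Mcpt9 did not exceed 6, 5, 11 and 0 counts in any library. Of the genes in that window, Gzmb alone had over 100 CPM in every library of 24 h.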
